A study of Homo sapiens with 24 samples.

Results

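HCT116 colorectal cancer cells that carry knockouts of both TNRC6A and TNRC6B were compared with wild-type HCT116 cells at the level of whole-cell RNA. The members are 6 of the 24 libraries of the series, chosen by their sample titles and genotype labels: 3 libraries of TNRC6AB-/- cells and 3 of wild-type cells, none of them transfected. The cells of all groups came from HCT116, an adherent epithelial line of a human colon tumour, and were grown at passages 12 to 18 in McCoy's 5a medium with serum to high confluency, without added agents. TNRC6A is interrupted by a frameshift and TNRC6B by a large deletion, both in the same line, and TNRC6C is intact in it. The double knockout is represented by 1 purchased line, so genotype and line cannot be told apart, and nothing in the labels or methods tells if libraries of a group came from separate cultures, so the p-values measure the spread between these samples, which may be technical. TNRC6AB-/- and wild-type cells transfected with siGL2, a control duplex RNA, gave 6 further libraries that share none with the main comparison, and their values are set beside it.

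TNRC6 proteins, the mammalian GW182 family, are large and mostly unstructured scaffolds. Tryptophan-containing repeats bind Argonaute, the protein that holds a microRNA, and another part binds the CCR4-NOT and PAN2-PAN3 deadenylases, which shorten the poly(A) tail of a target. Through these contacts a microRNA paired by its seed to a 3′ untranslated region lowers the translation and the stability of an mRNA. The comparison asks which transcripts stand higher or lower in cells that lack the paralogs TNRC6A and TNRC6B.

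Each library held 28822976 to 36919015 reads assigned to transcripts. Levels are given per gene as CPM, the reads of a gene scaled to a fixed library total after TMM scaling. Genes that rose or fell are those with an adjusted p under 0.05 (edgeR quasi-likelihood test, Benjamini-Hochberg over all genes tested). Genes that changed passed the same threshold and also moved by more than 0.6 on the log2 scale. The keratins of simple epithelia marked all 6 libraries, with KRT8 at 626.9 to 713.4 CPM in wild-type and 971.9 to 1129 CPM in TNRC6AB-/- cells. Of 7 blood cell markers 2 were abundant enough to be tested, and the summed level of that list was 1.25 to 1.41 CPM in wild-type and 3.43 to 3.58 CPM in TNRC6AB-/- cells; LYZ was the gene that rose, and PTPRC, the defining gene, stood at 0.793 to 1.56 CPM in all 6. Library 2 of wild type and library 1 of TNRC6AB-/- lay apart from the other libraries of their groups on the first components of variation, which carry 53.5% and 18.5% of it. In wild-type library 2 the summed level of 26 S phase genes was 1041 CPM, against 2850 and 2830 CPM in wild-type libraries 1 and 3. The counts of the lists that open the sections below are also given without either library where it moves them.

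Both targeted genes were lower as RNA in TNRC6AB-/- cells, and the intact paralog was higher. TNRC6A (ENSG00000090905.18) stood at 124.1, 99.6 and 125.1 CPM in wild-type libraries and at 56.3, 52.8 and 48.3 CPM in TNRC6AB-/- libraries. The groups did not overlap, and TNRC6A fell by 1.15 on the log2 scale (SE 0.13, adjusted p = 6.69e-05, edgeR). TNRC6B (ENSG00000100354.20) stood at 194, 198 and 209.8 CPM against 89.4, 103.4 and 94.98 CPM, and fell by 1.06 (SE 0.13, adjusted p = 9.91e-05). TNRC6C (ENSG00000078687.17) stood at 56.3, 52.5 and 48.7 CPM against 90.8, 108.1 and 95.2 CPM, and rose by 0.90 (SE 0.12, adjusted p = 0.000158). Neither mutated gene was absent, and counts over a whole gene test neither the frameshift nor the deleted exons.

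The partners of TNRC6 in silencing moved less. Of 10 genes for Argonautes and microRNA processing 2 rose and none fell by edgeR, with a median log2 fold change of 0.24 against -0.01 over all genes tested. With all 24 libraries in the fit 5 rose and 1 fell, and with length-scaled counts 0 rose and 1 fell. DICER1, the enzyme that cuts microRNA precursors, stood at 100.6, 109.1 and 109.9 CPM in wild type and at 151.2, 165.9 and 158.4 CPM in TNRC6AB-/- cells, and rose by 0.57 (SE 0.11, adjusted p = 0.0029). AGO4 rose by 0.56 (SE 0.16, adjusted p = 0.0278), a call that failed in 5 of 15 other settings, whereas AGO2, the Argonaute able to cut a perfectly paired target, had a log2 fold change of 0.36 (SE 0.15) that did not pass (adjusted p = 0.11). The other Argonautes, AGO1 and AGO3, had log2 fold changes of 0.18 and 0.20 (adjusted p = 0.365 and 0.329), and DROSHA and DGCR8, which release precursors in the nucleus, -0.25 and 0.40 (adjusted p = 0.118 and 0.086).

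Among 30 genes for deadenylation and decapping 6 rose (20%) and 4 fell (13.3%), with a median log2 fold change of -0.0. These shares are near those of all protein-coding genes tested, of which 15.4% rose and 9.83% fell. Only 3 rose without TNRC6AB-/- library 2, without wild-type library 1 or in a fit of the 6 compared libraries, with or without a replicate block. TOB1 and BTG2, adaptors that bring the CCR4-NOT deadenylase to mRNAs, were both higher in each TNRC6AB-/- library than in any wild-type library. TOB1 went from 57.2, 49.3 and 74.1 to 139.1, 138.4 and 147.6 CPM (log2 fold change 1.24, SE 0.16, adjusted p = 0.000155), and BTG2 from 38.4, 38.9 and 49.2 to 84.7, 97.5 and 113.3 CPM (1.22, SE 0.16, adjusted p = 0.00017). DCP2, the decapping enzyme, rose by 0.81 (adjusted p = 0.000773). CNOT3, a core subunit, fell by 0.73 (adjusted p = 0.000414), and PAN2, the catalytic subunit of the other deadenylase, fell by 0.66 (adjusted p = 0.00649).

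Of 22925 genes tested, 1935 changed upward (8.44%) and 1580 downward (6.89%), 15.3% in all. By the adjusted p alone 2556 genes rose (11.1%) and 1923 fell (8.39%), and the counts of the gene lists are set beside these percentages. Most list members are protein-coding, and of the 14993 protein-coding genes tested 15.4% rose and 9.83% fell, a closer background. Of the 14808 of these also tested with siGL2, 4292 rose and 3739 fell there. Where edgeR called no member of a list below in 1 direction, DESeq2 called none there either; at an unadjusted p under 0.05 that direction held 2 genes of the Argonaute list, 1 each of the miR-17 and miR-200 targets, the RNA sensors and the ribosomal proteins, and none of the other lists so described. Without regard to a test, the 3 TNRC6AB-/- libraries lay above all 3 wild-type libraries for 17.8% of genes and below them for 15.9%. In cells given siGL2, 1996 of 23135 genes changed upward (8.63%) and 1819 downward (7.86%). Of the genes tested in both comparisons and called upward in untransfected cells, 829 were called upward with siGL2 as well, 43.3% of the untransfected and 44.3% of the siGL2 calls, and 22 were called downward. Downward, 673 genes were called in both, 43.9% and 38.3%, and 15 were called upward with siGL2.

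The largest rises, among protein-coding genes at 5 CPM or more in a group and with no overlap between the groups, included genes of the extracellular matrix and of the antiviral response. COL3A1, a fibrillar collagen, stood at 14.4, 51.7 and 63.5 CPM in TNRC6AB-/- cells and had 3, 1 and 1 reads in the wild-type libraries. The ratio of reads was 783, with a counting interval of 335 to 2410 (95%, exact), and the fitted log2 fold change was 9.54. HAS2, a hyaluronan synthase, had 6, 1 and 8 reads in wild type and stood at 24.6, 48.4 and 26.0 CPM in TNRC6AB-/- cells, a ratio of 202 (122 to 361). These intervals cover counting error within these libraries only. GRIK2, a glutamate receptor subunit, rose from 0.991, 1.28 and 1.19 CPM to 42.9, 75.4 and 55.9 CPM (log2 fold change 5.65, SE 0.25, adjusted p = 3.13e-08, edgeR). MAMDC2, FAT2 (a giant cadherin) and SYTL5 (a binder of Rab27) rose by 4.31, 4.29 and 4.25 on the log2 scale. IFI44, IFI6, IFIT1 and PARP10, which follow with their lists, filled the other places among the 10 largest rises.

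NRIP1, a corepressor of nuclear receptors, had the largest fall by the same rule. It stood at 80.3, 55.2 and 78.4 CPM in wild type and at 0.655, 0.366 and 0.254 CPM in TNRC6AB-/- cells (log2 fold change -7.38, SE 0.28, adjusted p = 7.63e-09, edgeR). With siGL2 its log2 fold change was -8.83 (adjusted p = 5.69e-18). ANXA10, an annexin of gut epithelium, went from 10.0, 12.2 and 12.8 CPM to 0.0623, 0.197 and 0.222 CPM (log2 fold change -6.14, SE 0.42). CPVL, a carboxypeptidase, was at 9.88, 7.31 and 9.22 CPM in wild type and had 5, 1 and 2 reads in the TNRC6AB-/- libraries, a ratio of 111 (56.3 to 259). The groups did not overlap for NRIP1, ANXA10 or CPVL.

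For several other large falls, wild-type library 2 set much of the size. LCN2, a siderophore-binding lipocalin, stood at 1.52, 18.8 and 0.844 CPM in wild type and had 2, 3 and 4 reads in the TNRC6AB-/- libraries. Its log2 fold change was -6.22 with all libraries and -3.64 without wild-type library 2 (adjusted p = 0.0292, edgeR). Likewise LURAP1L moved from -5.50 to -4.01 without that library, the calcium channel gene TRPV6 from -4.69 to -2.82, the hexokinase-related HKDC1 from -4.46 to -2.79 and the neuropeptide precursor VGF from -4.35 to -3.76. All of them still passed the test. MAL2 and S100A14, which complete the 10 largest falls, belong to the epithelial genes below.

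**Figure D1:**
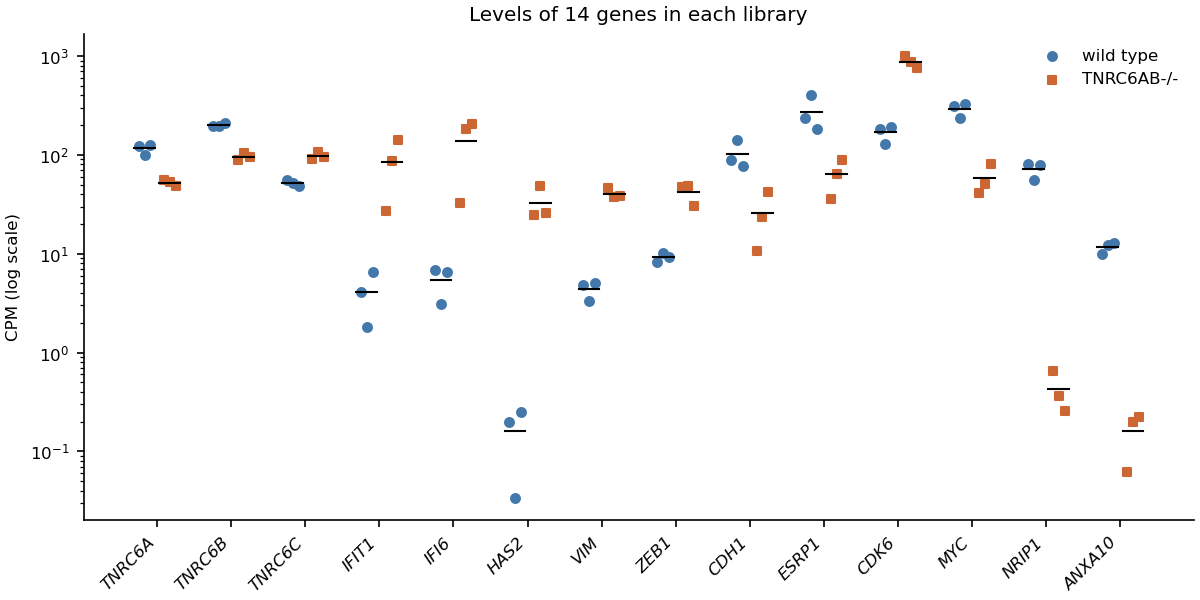
Level of 14 genes in each library (CPM, log scale), with 3 wild-type libraries as circles, 3 TNRC6AB-/- libraries as squares and group means as bars. TNRC6A, TNRC6B, CDH1, ESRP1, MYC, NRIP1 and ANXA10 were lower and the other 7 genes higher in every TNRC6AB-/- library; IFIT1 and IFI6 were lowest in TNRC6AB-/- library 1.

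Genes of the interferon response rose together in TNRC6AB-/- cells. Interferons are secreted on detection of foreign or misplaced nucleic acid, and signal through a factor complex that includes IRF9 to genes that carry an interferon-stimulated response element in their promoters. Of 43 interferon-stimulated effectors tested 37 rose and none fell, where 11.1% of all genes rose, with a median log2 fold change of 1.91 (range -0.42 to 4.91) against -0.01 over all genes. Without wild-type library 2 the count was 35, and without TNRC6AB-/- library 1 it was 37. The list is not independent evidence, since earlier results of these data showed the direction.

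IFIT1, which binds RNA with foreign 5′ ends, stood at 4.13, 1.81 and 6.5 CPM in wild type and at 27.1, 86.4 and 140 CPM in TNRC6AB-/- cells (log2 fold change 4.34, SE 0.59, adjusted p = 0.000213, edgeR). Its relatives IFIT2 and IFIT3 rose by 3.34 and 3.52, and IFI44 by 4.91 from 0.264, 0.101 and 0.25 CPM to 2.09, 8.11 and 8.72 CPM. IFI6, an inhibitor of cell death, went from 6.84, 3.09 and 6.47 to 32.9, 180.8 and 204.8 CPM. In each of these genes TNRC6AB-/- library 1 was the lowest of its group, and still above every wild-type library. ISG15, a ubiquitin-like protein, rose by 2.11 (SE 0.38, adjusted p = 0.00172), from 18.7, 14.5 and 19.2 to 25.2, 77.8 and 123.4 CPM. The ADP-ribosyltransferases PARP10 and PARP12 rose by 4.08 and 1.67, whereas MX1, a GTPase that blocks viruses, did not pass (log2 fold change 0.54, adjusted p = 0.0683).

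The factors above these effectors were higher too. Of 31 genes for RNA sensors and interferon signalling 15 rose and none fell (median 0.45). IRF9 stood at 8.29, 9.70 and 10.2 CPM against 23.3, 45.9 and 47.9 CPM (log2 fold change 2.05, SE 0.28, adjusted p = 0.000201, edgeR), lowest in TNRC6AB-/- library 1 and with no overlap. IRF7, another factor of the pathway, rose by 2.44, and the cytosolic sensors of double-stranded RNA DDX58 (RIG-I) and IFIH1 (MDA5) by 2.12 and 2.01. IFNB1, the gene of interferon beta, had no reads in any of the 6 libraries.

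Antigen presentation by class I molecules followed. Of 20 genes of this list 15 rose and none fell (median 1.07). B2M, the invariant chain, went from 197.8, 168 and 233 CPM to 292.5, 513.2 and 491.9 CPM (log2 fold change 1.12, SE 0.21, adjusted p = 0.0023, edgeR). HLA-C, a heavy chain, rose by 1.12, with reads that may be shared among similar genes. TAPBP, which loads peptides, rose by 1.37, and ERAP1, which trims them, by 1.75.

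The rise of the interferon genes was present in the siGL2 comparison and was smaller there for several of them. Of the 43 effectors 32 rose and none fell with siGL2, against 22.4% of all genes that rose in that comparison, with a median of 0.72 against 0.07 over all genes. IFIT1 stood at 11.7, 11.9 and 11.3 CPM in wild-type and at 40.8, 37.4 and 33.4 CPM in TNRC6AB-/- cells given siGL2 (log2 fold change 1.68, adjusted p = 6.24e-12, edgeR). Over all 24153 genes tested for a difference of the effects between siGL2 and untransfected cells, 1.77% rose and 5.52% fell (limma, adjusted p alone), and 1.54% and 4.8% also passed the fold. The effect on IRF9 was 1.03 with siGL2, and the difference of the effects, siGL2 less untransfected, was -1.06 (SE 0.31, adjusted p = 0.0406, limma). For B2M and HLA-C the log2 fold changes with siGL2 were 0.05 and 0.06 and did not pass (adjusted p = 0.494 and 0.491), and the differences from untransfected cells were -1.12 and -1.07 (adjusted p = 0.00203 and 0.00735).

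Many promoters of the effectors and class I genes hold a short motif. The motif searched was the core of the interferon-stimulated response element, which reads GAAA, any 2 bases and GAAA again, on both strands of the window from 250 bases before to 50 bases after the start of a gene in RefSeq (GRCh38.p14). It was found in 23 of the 35 interferon effectors with a promoter in the table, 65.7%, in 9 of 16 class I genes, 56.2%, and in 4 of 20 RNA sensors and signalling genes, 20%, against 336 of 11555 protein-coding genes tested, 2.91%. Of the 23 effectors with the motif 21 rose, and of the 12 without it in the window 10 rose. The following 30 bases are shown for genes with large rises or well-known members, on the strand of the gene, 5′ to 3′, with the match in capitals.
IFIT1 (chr10:89392497-89392526): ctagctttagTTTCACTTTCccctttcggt
IFIT3 (chr10:89327865-89327894): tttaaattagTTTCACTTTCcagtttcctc
IFI44 (chr1:78649761-78649790): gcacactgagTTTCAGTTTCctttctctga
IFI6 (chr1:27672329-27672358): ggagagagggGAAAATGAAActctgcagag
ISG15 (chr1:1013380-1013409): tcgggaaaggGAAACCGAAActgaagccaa
MX1 (chr21:41420559-41420588): gagcagaaatGAAACCGAAActgaattgtc
IFIT1, IFIT3 and IFI44 hold the match on the opposite strand, so that it reads as TTTC repeated here. MX1, whose log2 fold change did not pass, holds the same match as ISG15, which rose. A match describes the sequence and does not show binding.

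Genes that keep colon cells epithelial were lower, and several genes of mesenchymal cells and of the matrix were higher. Epithelial cells are held together by E-cadherin and tight junctions, and factors such as GRHL2, OVOL1 and the splicing regulators ESRP1 and ESRP2 maintain that state, whereas ZEB1 represses it. Of 18 genes of epithelial transcription and splicing factors 10 fell and none rose (median -0.64), where 8.39% of all genes fell, and of 39 genes of epithelial junctions and polarity 16 fell and 1 rose (median -0.58). Without TNRC6AB-/- library 1 the counts that fell were 8 and 13, and without wild-type library 2 they were 9 and 14. They were 8 and 11 without TNRC6AB-/- library 2, and 10 and 20 without TNRC6AB-/- library 3.

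CDH1, the gene of E-cadherin, stood at 89.1, 141.1 and 77.3 CPM in wild type and at 10.7, 23.6 and 42.6 CPM in TNRC6AB-/- cells (log2 fold change -2.0, SE 0.43, adjusted p = 0.00502, edgeR). EPCAM, a surface glycoprotein of epithelia, went from 216.6, 221.7 and 230.3 to 52.8, 83.7 and 118.9 CPM (-1.39, SE 0.25). CLDN7, a claudin, fell by 2.07, PATJ, a polarity scaffold, by 0.83, and MAL2, which carries proteins to the apical surface, by 4.74, from 167.7 or more to 14.97 CPM or less. S100A14 fell by 4.39. In each of these genes TNRC6AB-/- library 1 was the lowest and library 3 the highest of its group, and all 3 lay below wild type. The rise in the junction list was KRT8, by 0.62, a call that failed in 4 of 15 other settings, and KRT18, its partner, had a log2 fold change of 0.30 (adjusted p = 0.397).

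Among the regulators, ESRP1 went from 236.3, 403.2 and 180.8 to 35.9, 64.7 and 89.7 CPM (log2 fold change -2.11, SE 0.35, adjusted p = 0.000846, edgeR). Without TNRC6AB-/- library 3 the log2 fold changes of several epithelial genes were larger in size, at -3.03 for GRHL2 and for OVOL1, -2.67 for CLDN7, -5.73 for MAL2 and -5.33 for S100A14. With all libraries GRHL2 fell by 2.26, OVOL1 by 2.43, EHF by 2.06 and HNF4A, a nuclear receptor of gut and liver, by 2.48. On the other side ZEB1 stood at 8.33, 10.1 and 9.38 CPM against 47.2, 48.4 and 30.6 CPM, and rose by 2.18 (SE 0.19, adjusted p = 7.4e-06). ZEB2 did not pass (0.70, adjusted p = 0.0916), nor did SNAI1 (-0.27, adjusted p = 0.464). SNAI2 was not called either (-1.71). Of the 9 genes tested in the list of such inducers 3 rose, where 11.1% of all genes did.

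VIM, the intermediate filament protein of mesenchymal cells, rose from 4.79, 3.32 and 5.03 to 46.0, 37.2 and 38.1 CPM (log2 fold change 3.2, SE 0.24, adjusted p = 1.82e-06, edgeR). Of 20 genes of the mesenchymal cytoskeleton and surface 5 rose and 1 fell (median 0.12), FSTL1 among the former by 1.49. The fall was FSCN1, by 0.97, a gene in the region of chromosome 7 described below. The markers CDH2, CDH11, ACTA2, TAGLN, CALD1 and NT5E were not called, with log2 fold changes of 0.17, 0.23, 0.08, -0.01, -0.07 and -1.23. With a replicate block, with no filter or with all 24 libraries in the fit 3 genes of the list fell. Of 32 genes of the matrix and its remodelling 15 rose and 6 fell (median 0.67), and 3 fell without wild-type library 2 or without TNRC6AB-/- library 2. FN1, fibronectin, rose by 2.13 and SPARC, a collagen-binding protein, by 3.96, while COL1A1, the most abundant collagen of fibroblasts, had a log2 fold change of 0.47 (adjusted p = 0.138). COL3A1 was the 1 of 5 fibroblast markers tested that rose. TGFB2, a ligand that drives the mesenchymal state, rose by 3.99, from 1.16, 1.28 and 0.906 CPM to 8.48, 18.9 and 25.6 CPM, within a list of 27 TGF-beta genes of which 10 rose and 2 fell. SMAD7, a feedback inhibitor, rose by 1.86.

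With siGL2 the epithelial falls were smaller for several genes. Of 17 epithelial factors tested there 11 fell and 2 rose (median -0.53), and of 39 junction genes 20 fell and 8 rose (median -0.13). Of all genes 19.3% fell and 22.4% rose in that comparison. There CDH1 stood at 61.1 to 61.7 CPM in wild-type and 35.7 to 38.6 CPM in TNRC6AB-/- cells (log2 fold change -0.73, adjusted p = 1.05e-09, edgeR), and EPCAM at 168.2 to 193.4 against 155.2 to 182.3 CPM (-0.12, adjusted p = 0.147). The difference of the effects was 1.33 (SE 0.40, adjusted p = 0.0421, limma) for CDH1 and 1.25 (SE 0.26, adjusted p = 0.00431) for EPCAM. ZEB1 rose by 0.84 with siGL2, a difference of -1.40 (SE 0.23, adjusted p = 0.000567).

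The promoters of the epithelial genes often held CAGGTG, an E-box to which ZEB1 and related factors bind. Searched on both strands (CACCTG on the other), it was in 11 of 19 junction genes with a promoter in the table, 57.9%, and in 5 of 10 epithelial factors, 50%, against 19.2% of protein-coding genes tested. Of the interferon effectors 11.4% held it. PATJ and S100A14 serve as examples, again 30 bases of the gene's strand in GRCh38.p14 with the match in capitals.
PATJ (chr1:61742297-61742326): ccggtaggaattCACCTGcacgtaaacagc
PATJ (chr1:61742438-61742467): gggagggcctgcCAGGTGaggcgcggtcac
S100A14 (chr1:153616322-153616351): aagagctgagctCAGGTGagctggctcctc
PATJ held the E-box at 3 places in its window, of which 2 are printed. No match can be shown for CDH1, EPCAM, CLDN7, ESRP1, GRHL2, MAL2, EHF or OVOL1. Each of them either lacked the E-box in the window or had no promoter in the table. The shares were not split by whether members fell, and a link between the E-box and the falls was not tested.

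**Figure D2:**
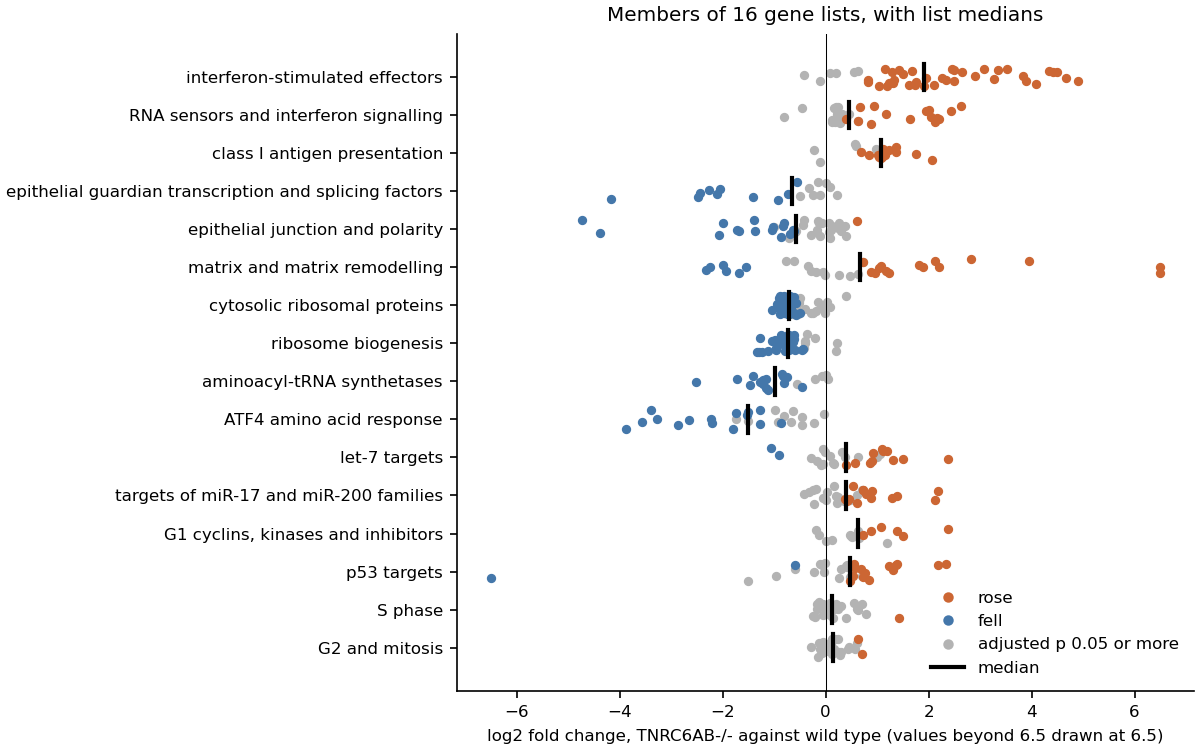
Log2 fold change of each tested member of 16 gene lists in TNRC6AB-/- against wild type, coloured by whether it rose or fell at an adjusted p below 0.05, with the list median as a bar; values beyond 6.5 are drawn there. Interferon effectors and class I genes lie to the right, with medians of 1.91 and 1.07, while ribosomal proteins, ribosome biogenesis, tRNA synthetases and the ATF4 list lie to the left, with medians of -0.70 to -1.51.

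The apparatus of protein synthesis was lower at several levels. Of 82 genes of cytosolic ribosomal proteins 56 fell and none rose (median -0.70, range -1.04 to 0.39), against 8.39% of all genes. Their summed level was 52200, 53080 and 59680 CPM in wild type and 26890, 32600 and 42700 CPM in TNRC6AB-/- cells, lowest in library 1. The number that fell was 19 without TNRC6AB-/- library 1 (median -0.55), 11 without TNRC6AB-/- library 2 (median -0.67) and 31 without wild-type library 3 (median -0.65). RPS2, a protein of the small subunit, fell by 1.04 (SE 0.20, adjusted p = 0.00222, edgeR) and RPL11, of the large subunit, by 0.80 (adjusted p = 0.00335). With siGL2, 79 of the 82 fell and 1 rose (median -0.67).

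Of 36 genes of ribosome biogenesis 29 fell and none rose (median -0.74), and 25 fell without TNRC6AB-/- library 1. FBL, which methylates ribosomal RNA, stood at 190, 130.7 and 198.9 CPM against 59.4, 64.0 and 84.0 CPM, and fell by 1.33 (SE 0.18, adjusted p = 0.000175, edgeR). WDR3, a factor of the small subunit, fell by 1.28, NPM1, a nucleolar chaperone, by 0.75 and NCL, nucleolin, by 0.45 (adjusted p = 0.0484, a call that failed in 9 of 15 other settings). MYC, which drives many of these genes, went from 316, 237.8 and 325.1 to 41.6, 50.7 and 81.2 CPM (log2 fold change -2.34, SE 0.29, adjusted p = 9.64e-05), and MXD4, an antagonist that shares its partner MAX, rose by 1.31. With siGL2 the biogenesis list had a median of -0.09, with 15 falls and 5 rises against 19.3% and 22.4% of all genes, and MYC fell by 0.95 on the log2 scale.

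Targets of ATF4, which answers amino acid shortage, and the tRNA synthetases were lower as well. Of 26 genes of the ATF4 amino acid response 15 fell and none rose (median -1.51), and of 20 aminoacyl-tRNA synthetases 15 fell and none rose (median -0.99). Here the wild-type libraries differed widely: the summed ATF4 list was 4565, 6181 and 1956 CPM in them and 1128, 1268 and 1382 CPM in TNRC6AB-/- cells. Without wild-type library 2 the counts that fell were 12 and 12, with medians of -1.03 and -0.74. ASNS, asparagine synthetase, stood at 344.1, 504.2 and 77.2 CPM against 18.7, 30.7 and 28.6 CPM (log2 fold change -3.57, SE 0.55, adjusted p = 0.00051, edgeR). SLC7A5, an importer of large amino acids, fell by 2.87 and TRIB3, an inhibitor of ATF4, by 3.27, while ATF4 itself did not pass (-0.80, adjusted p = 0.0558). Among the synthetases FARSB fell by 1.42, EPRS by 1.21 and GARS by 2.52.

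Sugar metabolism showed no shared direction in untransfected cells. Of 30 glycolysis and hypoxia genes 4 fell and 1 rose (median -0.32), and with siGL2 26 fell and 1 rose (median -0.92). The direction in untransfected cells turned with 1 library: without wild-type library 3, 6 rose and 3 fell (median 0.26), and without wild-type library 2, 8 fell (median -0.52). HK2, the hexokinase of proliferating cells, fell by 3.06 (a log2 fold change of -3.97 without TNRC6AB-/- library 3) and PDK1, which restrains pyruvate use, by 1.25. The wild-type libraries ranged from 5749 to 13730 CPM in the sum of this list.

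Genes of the G1 phase, p53 targets and known targets of let-7 were more often higher than lower. Of 16 genes of G1 cyclins, kinases and inhibitors 6 rose and none fell (median 0.64), and 10 rose with all 24 libraries in the fit. Beside CDK6, CCND1 and RB1, the rises were the inhibitors CDKN1A, CDKN1B and CDKN1C, by 1.40, 0.72 and 1.07. The kinases CDK2 and CDK4 and the cyclin CCND3 were not called (log2 fold changes 0.51, -0.18 and 0.49). CDK6 (ENSG00000105810.9), a kinase that opens the cell cycle, stood at 182.1, 130.2 and 193.7 CPM in wild type and at 1005, 872.1 and 756.3 CPM in TNRC6AB-/- cells (log2 fold change 2.38, SE 0.18, adjusted p = 1.82e-06, edgeR). CCND1, its cyclin, went from 579.8, 511.9 and 551 to 1276, 1889 and 1461 CPM (1.49, SE 0.20, adjusted p = 0.000184). Both held with siGL2, at 2.36 and 2.19. RB1, which they inactivate, rose by 0.89.

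Of 32 p53 targets 14 rose and 2 fell (median 0.48), and 9 rose without TNRC6AB-/- library 2. The falls, named after their values were seen, were PLK3, by 0.60 with the call lost without TNRC6AB-/- library 2 (log2 fold change -0.52), and SPATA18, a gene of mitochondrial quality control that stood at 0.364, 0.436 and 0.344 CPM in wild type and had no reads in the TNRC6AB-/- libraries. CDKN1A, the kinase inhibitor p21, rose by 1.40 from 197.1 CPM or less to 284.5 CPM or more, MDM2, which degrades p53, by 0.76, TP53INP1 by 2.19 and PLK2 by 2.34. The genes of S phase and of G2 and mitosis showed little: 1 of 26 and 2 of 30 rose and none fell by edgeR, with medians of 0.12 and 0.15. Without wild-type library 2, which was low in both lists, the medians were -0.27 and -0.10. CCNE2, the S phase gene that rose, did so by 1.43, and its lowest value, 7.01 CPM, was in that library.

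**Figure D3:**
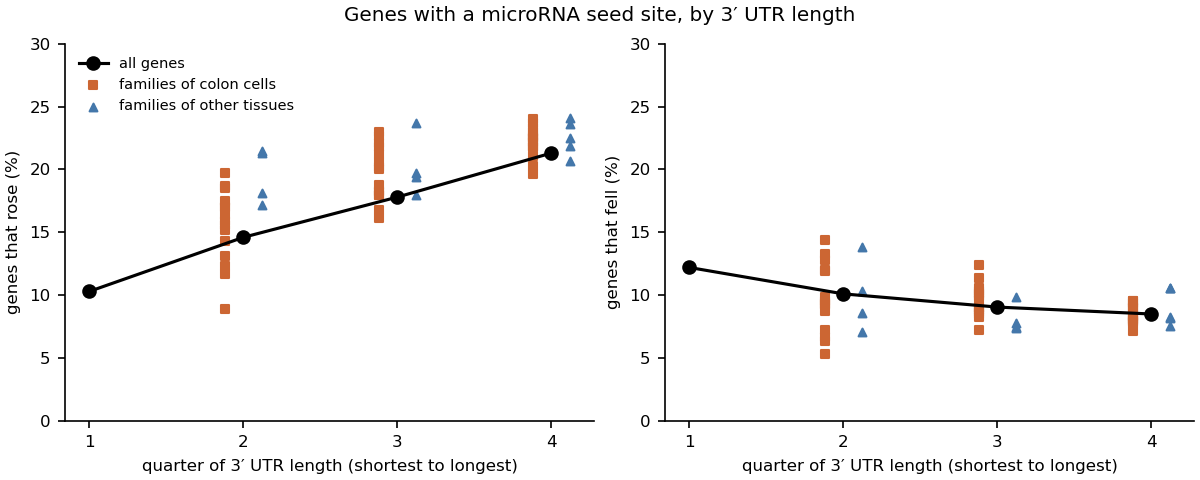
Percentage of genes that rose (left) and fell (right) in TNRC6AB-/- cells, in 4 classes of equal size by 3′ untranslated region length, shortest to longest: all genes (black line), and genes with a seed site of 15 families named for colon cells (squares) or of up to 5 families named for other tissues (triangles), each point a family with at least 40 genes. The rising share grew from 10.3% to 21.3% along the black line, and most families of both kinds lay above it. In classes 2, 3 and 4 these were 10, 13 and 12 of the 15 colon families. Of the other families they were 4 of 4, 4 of 4 and 4 of 5.

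Targets of microRNAs were examined in sets. A microRNA finds its targets mainly through bases 2 to 8, its seed, which pair with a complementary site in the 3′ untranslated region, and microRNAs with the same seed form a family. The sequences below (RefSeq, GRCh38.p14) are those of the families behind the lists of this section and of miR-29, the colon family with the highest share of rises in the longest regions, written 5′ to 3′ with the seed in capitals, followed by 2 from heart, muscle or liver.
hsa-let-7a-5p: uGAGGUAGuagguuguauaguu
hsa-miR-17-5p: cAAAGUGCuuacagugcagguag
hsa-miR-200c-3p: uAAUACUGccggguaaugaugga
hsa-miR-141-3p: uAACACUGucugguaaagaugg
hsa-miR-29a-3p: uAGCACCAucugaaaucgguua
hsa-miR-122-5p: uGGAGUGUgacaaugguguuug
hsa-miR-1-3p: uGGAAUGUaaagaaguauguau
The seeds of miR-200c and miR-141 differ by a single base. The microRNAs themselves were not measured in these libraries.

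Known targets of let-7, a family that restrains growth genes, moved unevenly. Of 27 tested 11 rose and 2 fell (median 0.40), 9 rose with the genes of the chromosomal regions described below left out and 6 with length-scaled counts. With siGL2 17 rose and 3 fell, where 22.4% of all genes rose and 19.3% fell. HMGA2, the best known target, with 4 sites CTACCTC in its 3′ untranslated region, stood at 435, 513.7 and 440.2 CPM against 461, 510.5 and 508.6 CPM, groups that overlap (log2 fold change 0.09, SE 0.12, adjusted p = 0.664, edgeR). With siGL2 its log2 fold change was 1.13 (adjusted p = 5.69e-11), and the difference of the effects was 0.94 (SE 0.12, adjusted p = 3.08e-05, limma). NR6A1, an orphan nuclear receptor with 5 such sites, rose by 1.12, and TGFBR1, with 1, by 0.90. PBX3, also with 1, rose by 1.32, and IGF2BP3, an oncofetal RNA-binding protein with 1 site, fell by 1.06. NR6A1, PBX3 and IGF2BP3 lie in the chromosomal regions described below. CDK6 and CCND1, the largest rises of the list at 2.38 and 1.49, held no such site. IGF2BP1, with 4 sites, was not called (log2 fold change 0.99).

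Of 32 known targets of the miR-17 and miR-200 families 14 rose and none fell (median 0.40), against 20 and 4 with siGL2, where those shares of all genes were 22.4% and 19.3%. The number that rose was 10 without TNRC6AB-/- library 2 or 3 or wild-type library 1, and 12 without wild-type library 2. With library totals alone, or without TNRC6AB-/- library 1, 1 fell. ZEB1 held 5 sites CAGTATT for miR-200c and 3 sites CAGTGTT for miR-141 in its 3′ untranslated region. FN1 held 2 sites for miR-200c. BCL2L11, which starts cell death and has 1 site for miR-17, rose by 1.29 from 26.3, 33.6 and 27.8 to 74.0, 71.0 and 69.5 CPM (SE 0.13, adjusted p = 2.83e-05, edgeR). LATS2, a kinase that restrains YAP, rose by 0.91. TNRC6C and TNRC6A held 1 site each for miR-17, and TNRC6B held 3.

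Genes with a seed site were then set beside all genes with a region of like length. A 3′ untranslated region of at least 30 bases could be cut for 13831 protein-coding genes, from the annotated transcript with the highest TPM. Of these 16% rose and 9.96% fell (median 0.05). The share that rose grew with length, from 10.3% in the shortest of 4 length classes through 14.6% and 17.8% to 21.3% in the longest, while the share that fell went from 12.2% to 8.5%. In the longest class the 15 families named for colon cells had 19.6 to 24.0% of genes rise, with a median of 22.5% over families and 12 families above all genes, and the 5 families named for other tissues had 20.7 to 24.1%, also with a median of 22.5% and 4 families above. The median log2 fold change in that class was 0.05 to 0.12 over the colon families, 0.07 to 0.12 over the others and 0.08 over all genes. For let-7 19.6% rose and for miR-29 24%. Families share target genes, longer regions hold more sites of every kind, and which microRNAs these cells express was not measured.

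In 3 chromosomal regions most genes were shifted the same way in TNRC6AB-/- cells. The regions were found in these data: of 291 windows of 10 Mb with at least 20 genes tested, 8 had a median log2 fold change beyond 0.4 either way, and they joined into chromosome 5 from 0 to 20 Mb, chromosome 7 from 0 to 40 Mb and chromosome 9 from 120 to 140 Mb (GRCh38). In the region of chromosome 5, 70 of 80 genes tested were lower (87.5%) and 42 changed downward, with a median of -0.77 (quartiles -1.23 and -0.33). In that of chromosome 7, 210 of 261 were lower (80.5%) and 114 changed downward, with a median of -0.69. In that of chromosome 9, 263 of 317 were higher (83%) and 140 changed upward, with a median of 0.63. Since these values chose the regions, they are a description. Over the rest of chromosomes 5, 7 and 9 the medians were -0.02, -0.01 and 0.01.

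Libraries that played no part in the choice showed the same shifts. With siGL2 the medians of the effect were -0.73, -0.78 and 0.58 in the regions of chromosomes 5, 7 and 9, and 0.07 over all other genes. Against the mean of wild-type cells, untransfected or with siGL2, the median log2 ratio in the region of chromosome 5 was -1.08, -1.06 and -0.89 in the untransfected TNRC6AB-/- libraries, -0.83, -0.85 and -0.90 with siGL2 and -0.91, -0.92 and -0.86 with an siRNA pool against TNRC6C. For chromosome 7 the values were -0.82, -0.70 and -0.71, then -0.85, -0.84 and -0.90, then -0.85, -0.84 and -0.85. For chromosome 9 they were 0.50, 0.65 and 0.77, then 0.65, 0.55 and 0.53, then 0.40, 0.45 and 0.40. Every one of the 9 TNRC6AB-/- libraries lay beyond every library of another genotype in all 3 regions. In the TNRC6A-/- and TNRC6B-/- lines, which share the wild-type libraries with this comparison, the medians of the regions were 0.03, -0.05 and 0.09 and then -0.10, 0.05 and 0.03.

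On chromosomes 7 and 9 the shift ended or began inside the region, in bins of 2 Mb. On chromosome 7 the bins from 28 to 34 Mb had medians of -1.39, -0.87 and -0.77, the bin from 34 to 36 Mb -0.14, and those from 36 to 42 Mb 0.31, 0.06 and 0.19. On chromosome 9 the bin from 120 to 122 Mb had a median of 0.12, and the next from 122 to 124 Mb 0.75, with the highest value, 0.89, in the last bin, from 136 to 138 Mb. Some members of the gene lists lie within: GARS, IGF2BP3, CPVL, TRA2A (a splicing factor, log2 fold change -0.71) and FKBP14 in the region of chromosome 7, SDHA (a subunit of succinate dehydrogenase, -0.80) in that of chromosome 5, and NR6A1, PBX3, TUBB4B (a tubulin, 1.46) and EHMT1 (a histone methyltransferase, 0.86) in that of chromosome 9. Against their neighbours, ITGB8, an integrin on chromosome 7, rose by 1.80 and LCN2 on chromosome 9 fell. DNA was not measured in this series.

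The 3 regions held 658 of the 22904 genes tested on the autosomes and X (2.87%) and 310 of their 3505 changes (8.84%). Outside them 1787 genes changed upward and 1408 downward, 8.03% and 6.33%. The counts of the gene lists above moved little when the regions were left out, by at most 2 members in the lists of interferon, epithelial, ribosomal, ATF4, let-7 and p53 genes.

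**Figure D4:**
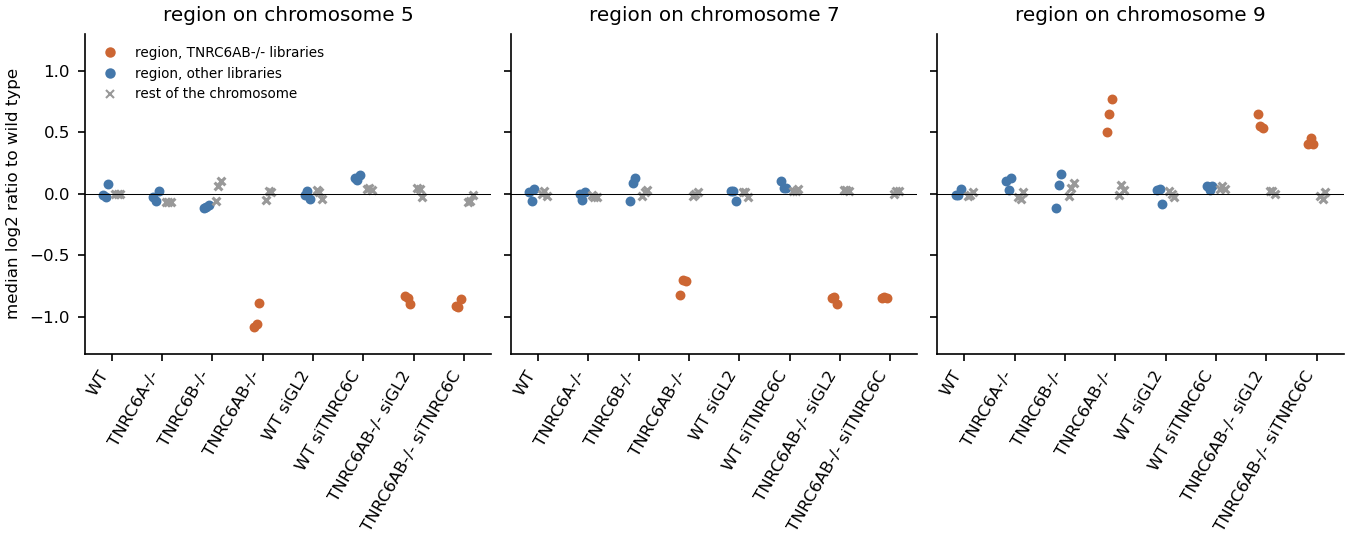
Median log2 ratio to wild type over genes of the regions on chromosomes 5, 7 and 9 in each of the 24 libraries (circles), with the rest of the same chromosome (crosses); untransfected libraries are set against the mean of 3 wild-type libraries and transfected ones against wild type with siGL2, and each column is a group of 3. The 9 TNRC6AB-/- libraries lie from -0.70 to -1.08 in the regions of chromosomes 5 and 7 and from 0.40 to 0.77 in that of chromosome 9, away from all other libraries.

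Exon use was read at the places that the study's primers span. TNRC6 and Argonaute have also been studied in the nucleus, where exon choice is made. Primer pairs for 8 genes were matched to GENCODE 29 transcripts. The percentage of TPM (abundance per transcript length) in transcripts that give the longer of the leading products was compared. It was taken over the leading pair of products alone. With 3 libraries against 3 the smallest p of the exact permutation test is 0.1, so no difference can pass 0.05. EPB41L2, a protein of the membrane skeleton, had the largest difference. The primers were agcattgccgtggtacaaga and tcgtctttcccaacctctgc, and the products were of 359 and 149 bases. They differ by 210 bases, exons 13 and 14 of the leading longer transcript (chr6:130880144-130880206 and chr6:130878104-130878250, minus strand, of 63 and 147 bases), a multiple of 3.

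The longer form of EPB41L2 made up 17.6, 21.3 and 29.9% in wild-type libraries and 69.7, 72.6 and 72.4% in TNRC6AB-/- libraries, 22.9 ± 6.3% against 71.6 ± 1.6% (mean ± SD, n = 3; exact permutation test, two-sided, p = 0.1, the smallest possible). The groups lay far apart. With siGL2 the values were 29.1, 34.7 and 27.6% against 64.4, 69.0 and 69.1%. A still longer product, of 515 bases, was left out of these shares. It held 5.3 to 9.9% of TPM in untransfected wild-type and 6.1 to 10.4% in TNRC6AB-/- libraries. With it counted in, the product of 359 bases made up 15.8, 19.3 and 28.3% against 62.4, 68.1 and 67.4%. The gene as a whole was not called, with a log2 fold change of 0.42 (SE 0.17, adjusted p = 0.105, edgeR), while its transcripts differed in share: those with the short product went from 18.2, 10.9 and 15.01 TPM to 8.57, 8.11 and 4.86 TPM, and those with the longer one from 3.88, 2.94 and 6.41 to 19.7, 21.5 and 12.7 TPM. The junctions read as follows in the transcripts, 5′ to 3′, with the bases of exon 13 in capitals.
EPB41L2, longer form: tcattgaaggaaagaAAAATTCCTTGAGAG
EPB41L2, shorter form: tcattgaaggaaagagttcacatgagactc

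FKBP14, a prolyl isomerase of the endoplasmic reticulum that folds collagen, had a smaller share of the longer form in each TNRC6AB-/- library than in any wild-type library. Its primers, tggtcagcccatttggtttacc and tggaatgattcatgggatcttggtc, give 314 bases or 92 fewer, and differ by exon 3 (chr7:30020213-30020304, minus strand, not a multiple of 3). The longer form was 48.7, 37.1 and 38.9% in wild type and 26.3, 6.9 and 3.1% in TNRC6AB-/- cells (41.5 ± 6.2 against 12.1 ± 12.4%, mean ± SD, n = 3; exact permutation test, p = 0.1), and 30.8 ± 3.8 against 19.4 ± 3.6% with siGL2. At 1.77 to 6.80 TPM for both forms together the share rests on little RNA, and weighed by estimated reads the difference was -5.6 points in place of -29.5. The gene fell by 0.73 in log2 fold change (adjusted p = 0.0138, edgeR) and lies in the shifted region of chromosome 7.
FKBP14, longer form: gaaaagaaggaaaagTCTTTTAGTACATGC
FKBP14, shorter form: gaaaagaaggaaaaggtaaaattcccccag

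The other genes differed less. RUBCN, a regulator of autophagy, had 15.7, 13.6 and 14.1% of the longer form in wild type and 33.4, 20.8 and 18.0% in TNRC6AB-/- cells (exact permutation p = 0.1), but 20 ± 3.2 against 17.8 ± 3.5% with siGL2 (n = 3, exact permutation p = 0.5). KIF21A, a kinesin, had 27.3 ± 3.7 against 33.6 ± 4.9% (n = 3, exact permutation p = 0.2) and 29.9 ± 1.1 against 39.0 ± 2.9% with siGL2, where the groups did not overlap. TBC1D5, PHLDB1, PPIP5K2 and APIP differed by -8.4, -8.5, 2.7 and -1.7 points, with overlapping groups (exact permutation p = 0.2, 0.2, 0.4 and 0.7). For PHLDB1 this compares products of 2897 and 142 bases. Another product, of 271 bases, held 10.7, 8.6 and 12.3% of TPM in wild type and 2.4, 4.7 and 0.0% in TNRC6AB-/- cells, without overlap. It stood at 0.66 TPM or less. With siGL2 it held 9.1, 10.2 and 0.9% against 2.9, 3.6 and 0.0%, and the groups overlapped. Of 14 tissue regulators of splicing 4 rose and 2 fell (median -0.01). RBFOX2 rose by 0.75 (adjusted p = 0.00093, edgeR) and RBM24, of muscle, by 1.70, while NOVA2 and RBM47, named after their values were seen, fell by 1.19 and 0.73, beside the falls of ESRP1 given above. The call of RBM47 was lost without TNRC6AB-/- library 1 (log2 fold change -0.56) or library 2 (-0.62).

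**Figure D5:**
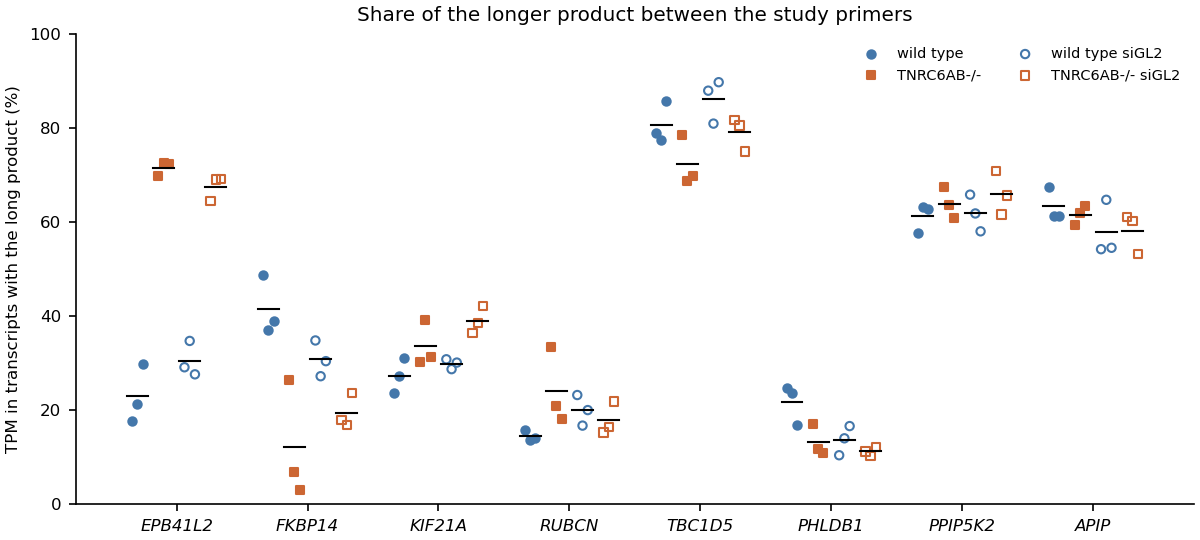
Percentage of TPM in transcripts that yield the longer product between the study's primers for 8 genes, taken over the leading pair of products. Libraries are untransfected (filled) or siGL2 (open), of wild-type (circles) and TNRC6AB-/- cells (squares), 3 each, with means as bars. EPB41L2 lies at 17.6 to 34.7% in wild-type and 64.4 to 72.6% in TNRC6AB-/- libraries; the other genes differ less or overlap.

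A few genes of other pathways also differed. EPHA4, an ephrin receptor, stood at 5.78, 7.11 and 5.81 CPM against 102.4, 137.9 and 69.1 CPM (log2 fold change 4.05, SE 0.25, adjusted p = 5.89e-07, edgeR). With siGL2 it rose by 3.49. ANKRD1, a target of YAP, rose by 3.6 (2.97 without TNRC6AB-/- library 3). Its list held 18 genes of the YAP pathway, of which 9 rose and 1 fell, where 11.1% and 8.39% of all genes did. The rises were YAP1, WWTR1, TEAD1 and TEAD2, factors of the pathway itself, LATS2, which restrains YAP, and ANKRD1, CTGF, AMOTL2 and CRIM1. AXIN2, a feedback inhibitor of Wnt signalling, rose by 2.37 from 12.7, 3.99 and 18.7 to 58.8, 74.2 and 50.1 CPM, and PROM1, a stem cell surface protein, fell by 3.35 (a log2 fold change of -4.0 without TNRC6AB-/- library 3). IGF2, a fetal growth factor, rose by 1.57.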

How the data were processed

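The study sequenced whole-cell RNA with a strand-specific Illumina kit; sample labels name Trizol and the methods RNeasy for extraction. The authors ran Salmon 0.11.0 and STAR 2.5.3a, per the submitters' processing notes, and the transcript set is not given in the sources used here. The deposited tables list an estimated count and a TPM for each transcript, made by the authors with Salmon. Of 199612 transcripts, 199368 matched GENCODE 29 (GRCh38) by identifier, and the 244 unmatched held at most 0.0544% of a library's reads. Estimated counts were summed to 57721 genes and rounded.

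Genes that passed filterByExpr were fitted by edgeR 4.0.16 (R 4.3.3) with TMM and a quasi-likelihood model of the 12 untransfected libraries in 4 groups (residual degrees of freedom 8), apart from transfected ones, whose spread was smaller (biological coefficient of variation 0.0616 against 0.201). The 12 transfected libraries were fitted likewise. The difference of the 2 genotype effects was tested with limma 3.58.1 (voom, quality weights per group) over 24 libraries. DESeq2 1.42.0 was an alternative. Standard errors come from the fold change and its F. Fits were tested on simulated data. Region medians per library use genes at 1 CPM or more in wild type and a pseudocount of 0.1 CPM. Named genes are the paralogs, the 10 largest rises and falls among protein-coding genes at 5 CPM or more without overlap, marked members and up to 4 with the smallest adjusted p of each list, and genes of the primers. The members and the lists were chosen with earlier results of these data known; the regions, motifs and exon examples were picked after their values were seen. Replicate numbers do not pair libraries: deviations of same-numbered libraries correlated at 0.068, -0.024 and 0.201. Other settings are given in the closing section. Results for some genes are not reported here.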

Additional observations from a re-analysis of the deposited data

Results flagged for a closer look

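The difference itself was tested for 119 named genes (limma). Of these, 47 had a genotype effect that differed between cells given siGL2 and untransfected cells (adjusted p below 0.05). Values are the log2 fold change with siGL2 less that in untransfected cells. For 44 of the 47 the effect was smaller with siGL2, the exceptions being HMGA2 (0.94), ANXA10 (-3.17) and IGF2BP3 (-0.56). Many of the named genes were chosen for large or clear effects in untransfected cells. That choice alone favours a smaller effect in libraries not used for it, so these counts are a description. The part of the choice in the differences was not tested. The shares of all genes that differed by this test are given with the interferon genes above.

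Among genes of the interferon response and antigen presentation the difference was -2.95 for IFI6, -2.64 for IFIT1, -2.1 for PARP10, -1.55 for ISG15, -1.54 for IRF7, -1.06 for IRF9, -1.12 for B2M, -1.08 for TAPBP and -1.07 for HLA-C. Among epithelial genes it was 2.91 for MAL2, 1.94 for GRHL2, 1.78 for OVOL1, 1.35 for CLDN7, 1.33 for CDH1, 1.25 for EPCAM, 1.2 for ESRP1 and 0.58 for PATJ. Among mesenchymal and matrix genes it was -4.61 for HAS2, -2.34 for SPARC, -1.44 for VIM, -1.4 for ZEB1, -1.01 for FN1, -0.85 for FSTL1 and -0.6 for TGFBR1.

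For genes of growth and amino acid supply it was 2.16 for SLC7A5, 1.65 for ASNS, 1.42 for HK2, 1.35 for MYC, 0.95 for WDR3, 0.72 for FARSB, -1.1 for MXD4 and -1.0 for IGF2. For genes of the cell cycle and of p53 it was -1.09 for CCNE2, -0.72 for PLK2 and -0.66 for RB1. For the remaining genes it was -3.92 for SYTL5, -3.14 for GRIK2, -1.76 for AXIN2, -1.09 for TOB1, -1.07 for MAMDC2, -0.94 for RBM24, 0.67 for RBM47, 1.46 for PROM1 and 2.4 for VGF. Transfected and untransfected libraries also differed in their spread between replicates, and its part in these differences was not tested.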

How the results depend on the processing

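The number of genes that changed upward was 1662 to 2480 over the 9 other settings of the test, scaling, counts, filter and libraries, against 1935, and downward 1383 to 2041, against 1580. Leaving out 1 library gave 1368 to 2291 upward and 929 to 1519 downward, the lowest of both without TNRC6AB-/- library 2. Without the 3 chromosomal regions, a setting chosen after seeing the data, as were the list counts without a library, 1787 and 1418 genes changed. With siGL2 a fit of all 24 libraries called 1301 genes upward in place of 1996, and leaving out 1 library gave 1688 to 2641 upward and 1694 to 2150 downward. Among the named genes called, 97 kept their call in all settings; AGO4, DICER1, FKBP14, KRT8, NCL, NPM1, PDK1, PLK3 and RBM47 did not. HMGA2, not called, was at -0.07 with length-scaled counts. The causes were not tested.

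With the replicate number as a block, 1813 genes changed upward and 1464 downward untransfected, and 1998 and 1789 with siGL2. Same-numbered libraries correlated at 0.068, -0.024 and 0.201, and with siGL2 at 0.242, -0.003 and 0.371, so the numbers were not taken as pairs.

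For exon use, weighing by estimated counts gave -5.6 for FKBP14, -0.2 for PPIP5K2 and -1.0 for TBC1D5, in points. Leaving out 1 library gave -2.8 to 0.3 for APIP. Transcripts below a few TPM limit these shares.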

Other observations

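Several gene groups outside the comparisons above moved in part. Of 12 S100 genes tested 6 rose and 1 fell (median 0.82, edgeR), the fall being S100A14, and of 12 annexins 4 rose and 1 fell, the fall being ANXA10. Of 25 genes of cholesterol synthesis and uptake 4 rose and none fell untransfected (median 0.44), where 11.1% of all genes rose and 8.39% fell. The number that rose was 10 without wild-type library 3 (median 0.61), and the median was 0.19 without wild-type library 2. With siGL2 3 rose and 15 fell (median -0.28), where 22.4% and 19.3% of all genes did. Of 12 commonly used reference genes 4 fell and 1 rose (median -0.21), 2 fell when any of TNRC6AB-/- libraries 1 and 2 and wild-type libraries 1 and 3 was left out, and with the 3 chromosomal regions left out 2 of 10 fell.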
